A study of Mus musculus with 55 samples.

Results

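RNA from the ventral dentate gyrus of 54 male mice was examined for 9 genes that mark dividing cells and neural progenitors, out of 45318 Ensembl identifiers in the deposited tables and 18283 genes with counts high enough to test. The 9 genes were taken by name, as markers of these cells, with earlier results of these data known. They are Mki67, Top2a, Hmmr and Cdk1, which are used in cell division, Ccnd2, a cyclin of the early cell cycle, Eomes, a marker of intermediate progenitors, and Nes, Sox2 and Hopx, which mark stem cells of radial glia type. All 9 passed the low-count filter, but Cdk1 was too low to judge, with a median of 9 read pairs per mouse against the minimum of 10 set here. The mice were C57BL/6J males raised from day 21 for 8 weeks in standard housing (SH) with 3 mice per cage, or in an enriched environment (EE) with 12 mice per cage, tunnels, objects and running wheels. They were then left unstressed as controls (C) or given 10 days of chronic social defeat stress (CSDS) by larger CD-1 aggressor mice. Defeated mice with a social interaction (SI) ratio above 1 were classed as resilient (RES) and those below 1 as susceptible (SUS). The groups held 10 SH C, 7 SH RES, 10 SH SUS, 9 EE C, 9 EE RES and 9 EE SUS mice, each a single animal dissected at P90, and the RES and SUS mice were not assigned by the experimenter but sorted by their behavior after defeat.

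The adult dentate gyrus is one of the few brain regions in which neurons are still born. Radial glia-like stem cells, which carry Sox2, nestin and Hopx, are mostly quiescent. When they divide they give intermediate progenitors that switch on Eomes and cycle rapidly before they become neuroblasts and then granule cells. Sox2 and Hopx are also present in astrocytes, nestin also in cells of blood vessels, and the division genes also in oligodendrocyte precursors, so in bulk tissue no member stands for 1 cell type alone.

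The promoters of the 4 division genes are printed because all 4 genes had higher estimates in EE mice and the promoters share sequence elements. Also, 3 of the genes varied together across mice. Cdk1, which is counted in both, was too low to judge. Genes used late in the cell cycle often carry a cell cycle homology region (CHR, searched as TTTGAA or TTCGAA) and CCAAT boxes (searched as CCAAT), which are bound by the MuvB complex and by NF-Y, respectively. Both motifs were searched on both strands in RefSeq promoters of GRCm38.p6, from 250 bases before to 50 after the transcription start, and capitals mark the matches, which nowhere overlapped each other in these 4 promoters. The sequences run 5′ to 3′ on the strand of the gene, which is the minus strand for all 4, at chr7:135716330-135716629 for Mki67, chr11:99024140-99024439 for Top2a, chr11:40733388-40733687 for Hmmr and chr10:69352863-69353162 for Cdk1.

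Mki67: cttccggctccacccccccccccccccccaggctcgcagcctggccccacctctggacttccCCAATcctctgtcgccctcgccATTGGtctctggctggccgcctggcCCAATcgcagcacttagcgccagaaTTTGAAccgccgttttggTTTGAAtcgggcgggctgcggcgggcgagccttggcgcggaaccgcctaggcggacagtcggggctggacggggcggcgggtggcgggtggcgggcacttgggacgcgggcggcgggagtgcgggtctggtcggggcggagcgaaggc

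Top2a: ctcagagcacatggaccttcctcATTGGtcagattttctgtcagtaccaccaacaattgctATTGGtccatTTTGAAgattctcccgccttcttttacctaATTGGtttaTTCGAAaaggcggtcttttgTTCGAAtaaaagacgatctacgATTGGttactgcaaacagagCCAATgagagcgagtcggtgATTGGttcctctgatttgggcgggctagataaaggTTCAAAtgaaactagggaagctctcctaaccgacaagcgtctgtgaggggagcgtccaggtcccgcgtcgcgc

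Hmmr: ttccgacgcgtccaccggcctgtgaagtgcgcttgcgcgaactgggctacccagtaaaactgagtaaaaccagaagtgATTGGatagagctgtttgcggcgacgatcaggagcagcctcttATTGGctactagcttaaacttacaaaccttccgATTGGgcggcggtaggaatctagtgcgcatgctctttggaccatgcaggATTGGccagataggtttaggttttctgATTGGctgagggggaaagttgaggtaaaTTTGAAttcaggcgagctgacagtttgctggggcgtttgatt

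Cdk1: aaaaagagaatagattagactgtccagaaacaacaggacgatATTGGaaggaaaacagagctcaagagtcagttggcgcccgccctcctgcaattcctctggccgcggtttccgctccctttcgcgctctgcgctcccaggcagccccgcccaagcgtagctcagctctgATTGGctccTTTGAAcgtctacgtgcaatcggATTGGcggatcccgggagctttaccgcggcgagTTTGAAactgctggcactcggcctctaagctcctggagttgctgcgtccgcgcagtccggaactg

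Top2a held 4 CHR matches and 6 CCAAT matches in this window. Mki67 and Cdk1 each held 2 CHR and 3 CCAAT matches, and Hmmr held 1 and 5. Of 32851 promoters of the same length, 19.2% held a CHR match, 37.4% a CCAAT match and 7.52% both, while 3.37% held 3 or more CCAAT matches, as these 4 promoters did. Among the stem cell and progenitor genes with a RefSeq promoter, Sox2 held 1 match of each kind, Eomes held 2 CCAAT matches and no CHR match, both promoters of Hopx held 1 CCAAT match and no CHR match, and Nes held neither. These letters describe the windows, and no factor was measured.

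The libraries held 32223034 to 49990637 read pairs, of which 16760009 to 24426804 per library were counted to genes on the transcribed strand. Per mouse the counted total reached 45872357, in an EE C mouse whose runs were summed. Of the read pairs, 13.9% to 19.9% were unmapped, 8.7% to 12.1% mapped to several places and 19.9% to 28.8% to no gene on that strand. Each library had a median Spearman correlation of 0.991 to 0.994 with the others over all genes. They differed in tissue content, since the summed level of 7 choroid plexus markers ran from 16.6 to 982 CPM, the highest in 1 SH C mouse. Levels are given in CPM, the count of a gene relative to the TMM-scaled total count of its library. The labelled tissue showed its defining markers, with Prox1, the transcription factor of dentate granule cells, at 141 ± 25.7 CPM and Calb1, the calbindin of these cells, at 262 ± 42.1 CPM (mean ± SD, n = 54).

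Per kilobase of exon, which allows genes to be ranked, the median level over the 54 mice was highest for Hopx, at 47.9 CPM per kb. Sox2 followed at 11.2, Ccnd2 at 8.17 and Nes at 1.60 CPM per kb. The division genes and Eomes lay far below, at 0.361 for Top2a, 0.240 for Mki67, 0.148 for Eomes, 0.0899 for Hmmr and 0.0813 CPM per kb for Cdk1. The stem cell genes were also measured more precisely than the division genes, because more read pairs were counted to them. Counting error alone gives a coefficient of variation of 2.52% for Hopx, 2.45% for Ccnd2, 4.47% for Sox2 and 6.68% for Nes, and the variation observed within groups was 11.6%, 8.93%, 10.9% and 13.8%. For Top2a and Mki67 the observed variation was 24.4% and 21.9%, against 11.8% and 13.5% from counting. For Eomes it was 34.2% against 26.2%. For Hmmr it was 33.8% against 32.5% and for Cdk1 38.1% against 33.3%, so the observed variation was closest to that from counting for Hmmr, and 22 mice had under 10 read pairs for Hmmr and 30 for Cdk1.

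**Figure D1:**
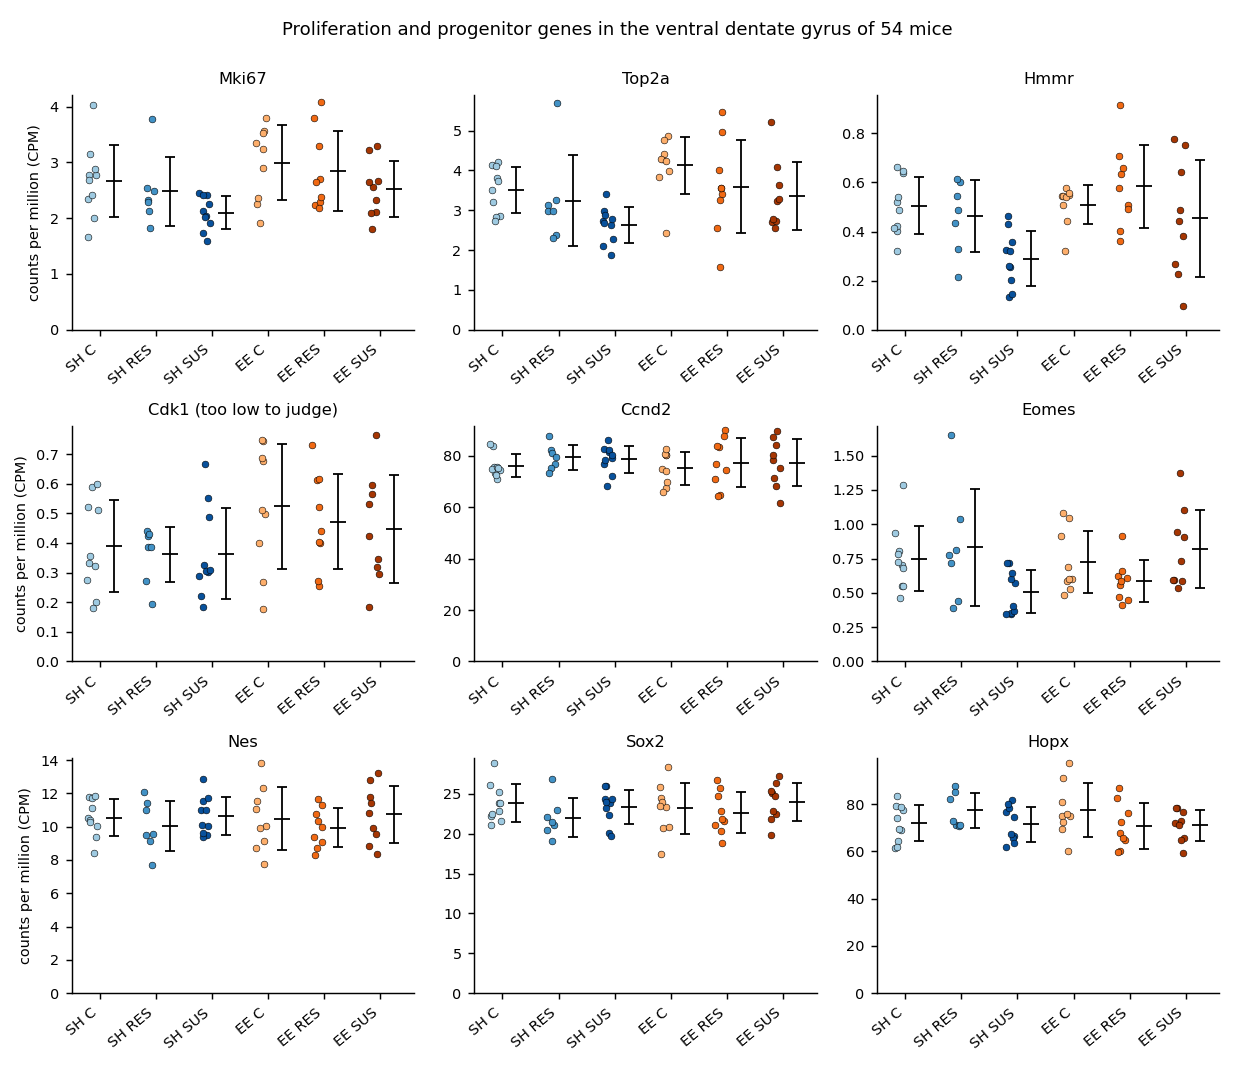
Level of each of the 9 genes in CPM (vertical axes, from 0) in the 6 groups (horizontal axes), with 1 point per mouse and a bar for the mean ± SD. SH SUS mice have the lowest group mean of Mki67, Top2a, Hmmr and Eomes, while Ccnd2, Nes, Sox2 and Hopx lie at similar levels in the 6 groups.

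Across the 6 groups, none of the 9 genes was called by the edgeR quasi-likelihood F test at a Benjamini-Hochberg adjusted p under 0.05, a threshold that 0.35% of the 18283 genes passed. The smallest adjusted p of the 9 was 0.163, for Hmmr. At an unadjusted p under 0.05 there were 4 of the 9, namely Mki67, Top2a, Hmmr and Eomes, beside 11.1% of all genes, and limma and DESeq2 also gave 4 each at that threshold. In this bulk tissue, fewer cells of a type and less RNA per cell cannot be told apart.

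Mki67 encodes the Ki-67 protein that coats chromosomes in dividing cells and is the usual marker of proliferation (ENSMUSG00000031004, chr7:135689784-135716361, minus strand, GRCm38). The lowest, median and highest level was 1.66, 2.72 and 4.03 CPM in SH C mice, 1.82, 2.33 and 3.77 in SH RES mice, and 1.59, 2.08 and 2.46 in SH SUS mice. In the EE groups it was 1.91, 3.24 and 3.80 CPM in C mice, 2.18, 2.65 and 4.09 in RES mice, and 1.81, 2.56 and 3.30 in SUS mice. The mean was highest in EE C mice, at 2.99 ± 0.67 CPM (SD, n = 9), and lowest in SH SUS mice, at 2.09 ± 0.295 CPM (n = 10), with overlap between the groups. Of the read pairs counted to Mki67 on either strand, 75.5% lay on the strand opposite to the gene, against at most 2.64% for the other 8 genes. Those pairs, 112 to 318 per mouse, were left out here. Their mean was 7.62 CPM in EE mice and 8.44 CPM in SH mice, in the reverse order of the gene's own strand, and with both strands counted together the fold change of Mki67 between EE and SH was -0.07 on the log2 scale (edgeR, p = 0.219).

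Top2a encodes topoisomerase II alpha, which untangles DNA before chromosomes separate (ENSMUSG00000020914, chr11:98992943-99024189, minus strand). The lowest, median and highest level was 2.73, 3.62 and 4.22 CPM in SH C mice, 2.30, 2.98 and 5.70 in SH RES mice, and 1.87, 2.70 and 3.41 in SH SUS mice. In EE it was 2.43, 4.28 and 4.87 CPM in C mice, 1.59, 3.55 and 5.46 in RES mice, and 2.55, 3.23 and 5.22 in SUS mice. As for Mki67, the mean was highest in EE C mice, at 4.12 ± 0.717 CPM (SD, n = 9), and lowest in SH SUS mice, at 2.63 ± 0.449 CPM (n = 10). A small share of its exon bases, 1.35%, is also annotated to the gene Gm23451 on the same strand.

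Hmmr encodes a receptor for hyaluronan that also binds the mitotic spindle (ENSMUSG00000020330, chr11:40701395-40733422, minus strand). The lowest, median and highest level was 0.321, 0.505 and 0.663 CPM in SH C mice, 0.216, 0.489 and 0.612 in SH RES mice, and 0.133, 0.292 and 0.463 in SH SUS mice. In EE it was 0.322, 0.544 and 0.579 CPM in C mice, 0.363, 0.577 and 0.917 in RES mice, and 0.0980, 0.443 and 0.778 in SUS mice. SH SUS mice were again lowest, and all 10 lay below the SH C median, 5 of them below every SH C mouse. Cdk1, the kinase that drives entry into mitosis (ENSMUSG00000019942, chr10:69335146-69352938, minus strand), ranged from 0.177 to 0.764 CPM, and its group means ran from 0.363 CPM in SH RES mice to 0.523 CPM in EE C mice.

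Housing was compared over all 27 EE and 27 SH mice, giving the C, RES and SUS groups equal weight. The sample names do not give the cage in which a mouse was raised, and the fit took no account of it. The 4 division genes had higher estimates in EE, and the other 5 genes lay between -0.03 and 0.05 on the log2 scale. The log2 difference was 0.21 for Mki67 (SE 0.084, 1.16-fold, 95% interval 1.03 to 1.3) and 0.24 for Top2a (SE 0.093, 1.18-fold, 1.04 to 1.35). It was 0.33 for Hmmr (SE 0.13, 1.26-fold, 1.04 to 1.51) and 0.36 for Cdk1 (SE 0.15, 1.28-fold, 1.04 to 1.58). Of the EE mice, 18 of 27 lay above the SH median of Mki67, and 20 of 27 above the SH median of Top2a, of Hmmr and of Cdk1. In edgeR the unadjusted p was 0.0154 for Mki67, 0.0108 for Top2a, 0.0163 for Hmmr and 0.0205 for Cdk1, but the adjusted p over all genes was 0.141 to 0.185, so none of the 9 genes was called, while 2.42% of all genes were. The 4 genes at an unadjusted p under 0.05, among them Cdk1, which was too low to judge, stand beside 17.6% of all genes at that threshold. limma and DESeq2 gave 4 genes each at an unadjusted p under 0.05 and 0 after adjustment. DESeq2 gave no adjusted p for Hmmr, Cdk1 and Eomes in this comparison. None of the 9 met the criterion of the study (limma-voom, unadjusted p under 0.05 and a fold change over 1.3), which 0.613% of all genes met.

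Top2a was not called in the fit of all 54 mice (edgeR adjusted p = 0.141). With 1 mouse left out at a time, 1 of the 54 fits called it. Without SH RES replicate 5, which had the highest Top2a of its group, the log2 difference between EE and SH was 0.31 and the edgeR adjusted p was 0.0437. That was the lowest adjusted p of these fits, and the share of all genes called in it is not reported here. Across the 54 fits that each left out 1 mouse, the log2 difference of Top2a ran from 0.21 to 0.31 and that of Mki67 from 0.18 to 0.25, and all of these fits gave both genes an unadjusted p under 0.05.

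Within each level of defeat the same comparison was made with fewer mice. Between EE C and SH C mice no member had an unadjusted p under 0.05, beside 5.02% of all genes, and none was called, beside 0.00547% of all genes. Between EE RES and SH RES mice 1 member did, beside 16%, and none was called, beside 0.273%. That gene was Eomes, at -0.50 on the log2 scale (SE 0.24, edgeR p = 0.0404, adjusted p = 0.286). Between EE SUS and SH SUS mice 3 members did, beside 7.36%, and none was called, beside 0.00547%. These were Top2a at 0.36, Hmmr at 0.66 and Eomes at 0.71, all higher in EE SUS mice, where all 9 lay above the SH SUS median of Eomes and 8 of 9 above that of Top2a.

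**Figure D2:**
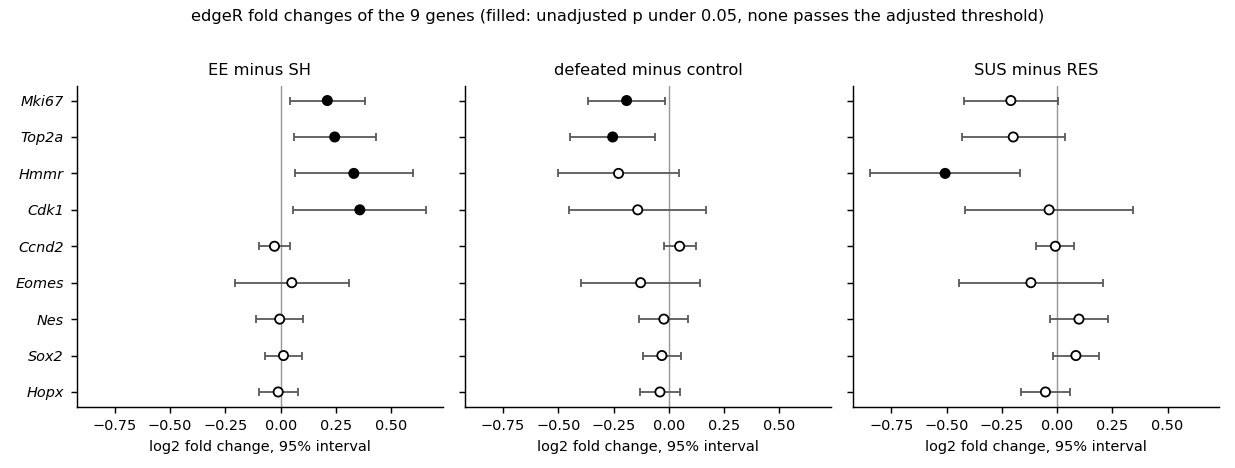
Log2 fold changes from edgeR (horizontal axes) of the 9 genes (vertical axis) between EE and SH, defeated and control, and SUS and RES mice, with 95% intervals; filled points have an unadjusted p under 0.05. The 4 division genes, of which Cdk1 was too low to judge, lie between 0.21 and 0.36 for EE minus SH. They lie below 0 for the other 2 comparisons, whereas the intervals of Ccnd2, Nes, Sox2 and Hopx are narrow and hold 0.

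Markers of other cells also differed with housing. All 5 mature oligodendrocyte markers had higher estimates in EE, and among those called was Mbp, which encodes a myelin protein, at 0.25 (edgeR adjusted p = 0.0468). The summed level of the 5 markers ran from 863 to 2122 CPM in SH mice and from 902 to 1973 CPM in EE mice. Of 6 oligodendrocyte precursor markers 5 were higher in EE and Olig2, a transcription factor of the lineage, was called, at 0.25 (adjusted p = 0.0108). All 6 endothelial markers were higher and Flt1, a receptor for vascular endothelial growth factor, was called, at 0.23 (adjusted p = 0.0186). Of 7 granule cell markers 6 were lower in EE, and Tdo2 and Dsp were called, at -0.28 (adjusted p = 0.0214) and -0.30 (adjusted p = 0.0281). No marker of these lists was at 0 in all mice. With the oligodendrocyte lists as covariates, the log2 difference was 0.21 for Mki67 (edgeR p = 0.0329, adjusted p = 0.541) and 0.27 for Top2a (p = 0.0143, adjusted p = 0.445). It was 0.27 for Hmmr (p = 0.0839, adjusted p = 0.665). The part of the other cells in the difference was not tested.

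Defeat was compared over 35 defeated and 19 control mice. Mki67 had a mean of 2.48 CPM in defeated and 2.82 CPM in control mice, and Top2a 3.19 and 3.80 CPM. The log2 difference was -0.19 for Mki67 (SE 0.087, edgeR p = 0.0323) and -0.25 for Top2a (SE 0.095, p = 0.00999), with 29 of 35 defeated mice below the control median of each. Hmmr, at -0.23, and Cdk1, at -0.14, had unadjusted p-values of 0.101 and 0.367. Of the 9 genes 8 had a lower estimate in defeated mice, and Ccnd2 a higher one. None was called, with a smallest adjusted p of 0.861, beside 0.0438% of all genes called. The 2 genes at an unadjusted p under 0.05 stand beside 4.81% of all genes, DESeq2 also gave 2 and limma gave 3, and none met the criterion of the study, which 0.481% of all genes met. For Mki67, 6 of the 54 fits that left out 1 mouse gave an unadjusted p over 0.05, the highest, 0.082, without SH C replicate 7, while Top2a stayed below it in all 54. With both strands counted together, the log2 difference of Mki67 was -0.06 (edgeR p = 0.348).

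The blood markers moved with defeat. All 4 that were tested were higher in defeated mice, and Alas2, Hbb-bs and Hba-a1, genes of heme synthesis and hemoglobin, were called, with a median log2 difference of 1.11 over the 4. The summed level of the 7 blood genes was 66.3 ± 17.3 CPM in SH C and 70.8 ± 13.7 CPM in EE C mice, and 118 ± 37.9 to 182 ± 85.7 CPM in the defeated groups (mean ± SD). All 5 thalamus markers had higher estimates in defeated mice, with a median of 0.46, and all 7 choroid plexus markers lower ones, with a median of -0.89, but none of either list was called. Astrocyte markers had lower estimates for 8 of 9 genes, with a median of -0.04, and 3 were at an unadjusted p under 0.05, namely the glutamate transporters Slc1a2 (-0.08) and Slc1a3 (-0.09) and the gap junction gene Gja1 (-0.08). All 7 granule cell markers had lower estimates, with a median of -0.10 and none at that threshold, and none of either list was called. With the choroid plexus and thalamus lists as covariates the log2 difference was -0.10 for Mki67 (edgeR p = 0.205) and -0.19 for Top2a (p = 0.0453), and with the astrocyte list it was -0.12 for Mki67 (p = 0.171) and -0.21 for Top2a (p = 0.0329). Whether these cells had a part in the difference was not tested.

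The outcome of defeat was compared between 19 SUS and 16 RES mice. Hmmr had the lowest estimate in SUS mice, at -0.51 on the log2 scale (SE 0.17, 0.704-fold, 95% interval 0.556 to 0.892, edgeR p = 0.00433, adjusted p = 0.999). Mki67, at -0.21, and Top2a, at -0.20, had unadjusted p-values of 0.0537 and 0.0946. Without SH RES replicate 5, Top2a was at -0.10 (edgeR p = 0.365), and with the choroid plexus and thalamus lists as covariates Top2a was at -0.08 (p = 0.486) and Mki67 at -0.10 (p = 0.326). With both strands counted, Mki67 was at -0.02 (p = 0.742). None of the 9 was called, and 0% of all genes were. Hmmr was the only member at an unadjusted p under 0.05, beside 3.67% of all genes, and it was also the only one that met the criterion of the study, which 0.454% of all genes met. limma and DESeq2 gave 1 gene each at an unadjusted p under 0.05. The estimate for Hmmr stayed between -0.57 and -0.44 with any 1 mouse left out, at a median of 10 read pairs per mouse.

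In SH mice alone, SUS mice were lower than C mice at an unadjusted p under 0.05 for 4 members, beside 2.78% of all genes. The log2 difference was -0.35 for Mki67 (edgeR p = 0.0150), -0.42 for Top2a (p = 0.00889), -0.81 for Hmmr (p = 0.00103) and -0.57 for Eomes (p = 0.0120). None was called, with a smallest adjusted p of 0.939, and 0.0328% of all genes were. Between SH SUS and SH RES mice 2 members were at that threshold, Eomes at -0.72 and Hmmr at -0.67, beside 4.88% of all genes, with none called and 0% of all genes called. These 2 comparisons and that of EE SUS with SH SUS mice share the 10 SH SUS mice. Between SH RES and SH C mice there was no member at an unadjusted p under 0.05, beside 3.51% of all genes, with none called and 0% of all genes called. In EE mice there was also none between SUS and C mice, beside 7.9%, or between RES and C mice, beside 7.91%, with 0% of all genes called in both. Between EE SUS and EE RES mice there was 1, beside 3.52%, with none called and 0% of all genes called. Groups overlapped for all 9 genes in each of the 9 pairwise comparisons.

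Whether defeat acted differently in EE and SH mice was tested as an interaction. No member had an unadjusted p under 0.05, beside 6.47% of all genes, or met the criterion of the study, beside 1.68%, and none was called, beside 0%. limma and DESeq2 gave 0 members as well. The estimates nearest to the threshold were 0.49 for Hmmr (95% interval -0.06 to 1.03) and -0.18 for Hopx (-0.36 to 0.0063), both on the log2 scale. With both strands counted together, Mki67 was at -0.26 (edgeR p = 0.0321, adjusted p = 0.733), against 0.07 on its own strand.

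Eomes, or Tbr2, is a T-box transcription factor of intermediate progenitors (ENSMUSG00000032446, chr9:118478212-118486132, plus strand) and was counted at 8 to 35 read pairs per mouse. The lowest, median and highest level was 0.459, 0.716 and 1.29 CPM in SH C mice, 0.388, 0.775 and 1.65 in SH RES mice, and 0.344, 0.490 and 0.719 in SH SUS mice. In EE it was 0.485, 0.603 and 1.08 CPM in C mice, 0.408, 0.584 and 0.917 in RES mice, and 0.539, 0.732 and 1.38 in SUS mice. SUS mice thus had the lowest mean of the SH groups and the highest mean of the EE groups. All 10 SH SUS mice lay below the SH RES median, and 8 of 9 EE SUS mice above the EE RES median. The SUS minus RES difference was -0.72 on the log2 scale in SH (SE 0.24, edgeR p = 0.00356) and 0.49 in EE (SE 0.22, p = 0.0339). The test of the difference between the housings, added after these values had been seen, gave 1.21 (SE 0.33, 95% interval 0.56 to 1.86, edgeR p = 0.000488, adjusted p = 0.977). Eomes was the only member at an unadjusted p under 0.05 in that test, beside 4.84% of all genes, with none called and 0% of all genes called, and the only one that met the criterion of the study, beside 2.29%. limma and DESeq2 gave 1 member each at an unadjusted p under 0.05. The estimate ran from 0.96, without SH RES replicate 5, to 1.34, without SH RES replicate 3. Dentate granule cell markers had higher estimates in the same test for 7 of 7 genes, with a median of 0.22 and none called. In the SH groups their summed level was 897 ± 45.0 CPM in RES and 823 ± 123 CPM in SUS mice. In the EE groups it was 721 ± 122 and 768 ± 112 CPM, and its part in the Eomes difference was not tested.

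Ccnd2, a D-type cyclin that carries progenitors through the first phase of the cycle (ENSMUSG00000000184, chr6:127125162-127152193, minus strand), ranged from 61.5 to 90.05 CPM. Its group means lay between 75.1 ± 6.25 CPM in EE C mice and 79.5 ± 4.87 CPM in SH RES mice. The log2 difference was -0.03 between EE and SH (95% interval -0.10 to 0.04) and 0.05 between defeated and control mice (-0.02 to 0.12). A share of 3.91% of its exon bases is annotated on the opposite strand to 9330179D12Rik.

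The group means of the stem cell genes lay close together. Nes, which encodes the intermediate filament nestin (ENSMUSG00000004891, chr3:87971078-87980451, plus strand), had group means from 9.95 ± 1.16 CPM in EE RES to 10.7 ± 1.71 CPM in EE SUS mice. Sox2, a transcription factor that keeps stem cells from differentiating (ENSMUSG00000074637, chr3:34650405-34652461, plus strand), ran from 22.0 ± 2.46 CPM in SH RES to 23.96 ± 2.37 CPM in EE SUS mice. It lies within the longer transcript unit Sox2ot on the same strand without sharing exon bases. Hopx, a small homeodomain protein of quiescent stem cells and astrocytes (ENSMUSG00000059325, chr5:77086988-77115121, minus strand), ran from 70.7 ± 9.59 CPM in EE RES to 77.5 ± 11.3 CPM in EE C mice, and 27.2% of its exon bases are annotated on the opposite strand to Hopxos. Between EE and SH the log2 difference was -0.0043 for Nes (95% interval -0.11 to 0.10), 0.01 for Sox2 (-0.07 to 0.10) and -0.01 for Hopx (-0.10 to 0.08). Between defeated and control mice it was -0.02 for Nes (-0.13 to 0.09), -0.03 for Sox2 (-0.12 to 0.06) and -0.04 for Hopx (-0.13 to 0.05). In the SUS to RES comparison the estimates were 0.10 for Nes (-0.03 to 0.23) and 0.09 for Sox2 (-0.02 to 0.19), each with an interval that held 0.

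Other genes of the cell cycle and of the stem cell lineage were drawn from 5 lists. Counts were high enough for 21 of 25 genes of the G2 and M phases, and in 19 of the 21 the estimate was higher in EE, with a median log2 difference of 0.13 beside 0.0043 over all genes. There were 8 of 21 at an unadjusted p under 0.05, all higher in EE, beside 17.6% of all genes in either direction, and none was called in edgeR, beside 2.42%. They included Aurka, a kinase of the spindle poles, at 0.25 (adjusted p = 0.0778), Cdca8, a subunit of the chromosomal passenger complex, at 0.26 (adjusted p = 0.102), and Ccnb2, a cyclin of mitosis, at 0.23 (adjusted p = 0.171). The 3 most abundant, Cenpe, Tacc3 and Bub1b, with roles at kinetochores and the spindle, had log2 differences of 0.10, 0.01 and -0.04.

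The S phase list did not share that direction. Of its 14 genes 6 had a higher and 8 a lower estimate in EE, with a median of -0.01 and none called. Mcm6, a subunit of the replicative helicase and the most abundant of the list at 40.3 ± 7.05 CPM, was at -0.20 (edgeR p = 0.00365, adjusted p = 0.085). Pcna, the sliding clamp of DNA polymerase, was at -0.06 (p = 0.0198, adjusted p = 0.182), and Rrm1, a subunit of ribonucleotide reductase, at -0.02. Of 15 genes that act in G1, 9 had a higher and 6 a lower estimate in EE, and 1, the cyclin Ccnd1, was called, at 0.21 (SE 0.059, adjusted p = 0.0402) and a mean of 43.4 ± 7.52 CPM. The inhibitor Cdkn1b and the retinoblastoma gene Rb1, the other 2 most abundant, were at 0.0040 and -0.0080.

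Of 21 radial glia-like stem cell genes 20 could be tested, and 8 had a higher and 12 a lower estimate in EE, with a median of -0.0051 and none called. Notch2, Thrsp and Id4, the most abundant of these, were at -0.03, -0.06 and -0.0017. Of 8 neuroblast genes 4 were higher and 4 lower, with a median of 0.01 and none called, and Calb2, Sox11 and Neurod1, the most abundant, were at -0.0020, -0.0011 and -0.03.

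**Figure D3:**
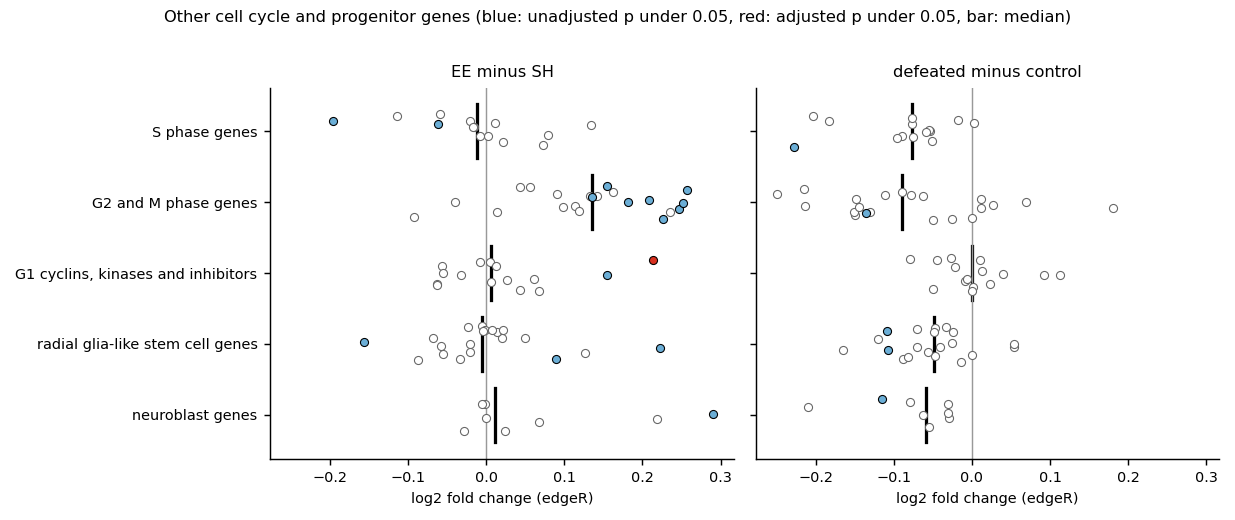
Log2 fold changes from edgeR (horizontal axes) of every tested gene of 5 lists (vertical axis) between EE and SH mice and between defeated and control mice, with 1 point per gene and a bar at the list's median. In EE, 19 of 21 G2 and M phase genes lie above 0 and Ccnd1 is the 1 called gene; with defeat, 13 of 14 S phase genes and all 8 neuroblast genes lie below 0 and none is called.

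In the comparison of defeated with control mice, lower estimates outnumbered higher ones in these lists, with none called in edgeR. They were found for 13 of 14 S phase genes (median -0.08), 15 of 21 G2 and M phase genes (-0.09), 18 of 20 radial glia-like genes (-0.05) and 8 of 8 neuroblast genes (-0.06), while the median over all genes was -0.0028. For the G1 genes 7 were higher and 8 lower. The numbers at an unadjusted p under 0.05 were 1, 1, 2 and 1 in the 4 lists, and 0 among the G1 genes, beside 4.81% of all genes. In the comparison of SUS with RES mice the medians were -0.03 for S phase, -0.06 for G2 and M phase, -0.01 for G1, 0.02 for radial glia-like and 0.04 for neuroblast genes, with 1 gene at an unadjusted p under 0.05 in each but the radial glia-like list, which had 0, beside 3.67% of all genes, and none called. In the test of SUS minus RES by housing, estimates were higher for 6 of 8 neuroblast genes (median 0.23) and 12 of 14 S phase genes (0.10). They were higher for 11 of 21 G2 and M phase genes (0.07), 6 of 15 G1 genes (-0.03) and 9 of 20 radial glia-like genes (-0.0062). None of these was called, beside 0% of all genes.

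Variation between mice of the same group was compared across the 9 genes, after the mean of each group was subtracted from log2 CPM. Of 36 pairs, 9 had an adjusted permutation p under 0.05 for both Pearson's r and Spearman's rho (54 mice, 100000 resamples, Benjamini-Hochberg over the 36). Mki67 and Top2a varied together, with r = 0.602 and rho = 0.615, each at p = 1e-05, the smallest value the resamples can give (adjusted p = 0.00036). Without the 2 mice farthest from the median of Mki67, r was 0.625. Cdk1 varied with Mki67, with r = 0.470 (p = 0.00068, adjusted p = 0.0049) and rho = 0.477 (p = 0.00065, adjusted p = 0.00585), and r was 0.509 without 2 mice.

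Eomes passed with Mki67, Top2a and Cdk1 and with none of Nes, Sox2 and Hopx, although the difference between these correlations was not tested. With Top2a it had r = 0.537 (permutation p = 8e-05, adjusted p = 0.00096) and rho = 0.535 (p = 4e-05, adjusted p = 0.0006), and r was 0.457 without 2 mice. With Mki67 r was 0.381 (p = 0.00684, adjusted p = 0.0274) and rho 0.379 (p = 0.00653, adjusted p = 0.0261), and r was 0.393 without 2 mice. Among the stem cell genes 2 pairs passed. Nes and Sox2 had r = 0.589 (p = 4e-05, adjusted p = 0.00072) and rho = 0.570 (p = 5e-05, adjusted p = 0.0006), with r = 0.551 without 2 mice. Sox2 and Hopx had r = 0.456 (p = 0.00123, adjusted p = 0.00738) and rho = 0.434 (p = 0.00199, adjusted p = 0.00904), and r was 0.327 without 2 mice. Hopx passed with Mki67 as well, with r = 0.436 (p = 0.00216, adjusted p = 0.011), rho = 0.438 (p = 0.00184, adjusted p = 0.00904) and r = 0.448 without 2 mice. Hmmr passed with none of the other 8 genes, its highest r being 0.253 with Mki67, and neither did Ccnd2. The 2 genes of each pair come from the same libraries and share their depth. With both strands counted, r of Mki67 and Top2a was 0.317.

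The members were also set beside 13 lists of cell type markers in the same way. Each list was taken as the mean log2 CPM of its tested genes. Of 117 relations, 14 had an adjusted permutation p under 0.05 for both coefficients. Nes went with the endothelial list, with r = 0.491 (p = 0.00019, adjusted p = 0.00468), rho = 0.518 (p = 0.00012, adjusted p = 0.00702) and r = 0.445 without 2 mice. Hopx went with the astrocyte list, with r = 0.592 (p = 4e-05, adjusted p = 0.00292), rho = 0.519 (p = 0.0002, adjusted p = 0.00772) and r = 0.505 without 2 mice. Ccnd2 went with the CA3 list, with r = 0.570 (p = 5e-05, adjusted p = 0.00292), rho = 0.605 (p = 1e-05, adjusted p = 0.00117) and r = 0.548 without 2 mice. Nes also passed with the mural (r = 0.470) and oligodendrocyte precursor lists (r = 0.443), and Sox2 with the latter (r = 0.443). Hopx passed with the microglia list as well (r = 0.506). Ccnd2 also passed with the ependymal (r = 0.427), mature oligodendrocyte (r = 0.400) and, negatively, granule cell lists (r = -0.445). Eomes passed with the granule cell list (r = 0.356).

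The thalamus list, a marker of tissue outside the dentate gyrus, went with Mki67, Top2a and Hopx. Mki67 was lower where the thalamus list was higher, with r = -0.485 (permutation p = 0.00035, adjusted p = 0.00682), rho = -0.479 (p = 0.00052, adjusted p = 0.0101) and r = -0.443 without 2 mice. For Top2a r was -0.431 (p = 0.00325, adjusted p = 0.0317), rho -0.400 (p = 0.005, adjusted p = 0.039) and r without 2 mice -0.309. For Hopx r was -0.483 (p = 0.0002, adjusted p = 0.00468), rho -0.488 (p = 0.00033, adjusted p = 0.00772) and r without 2 mice -0.471. Neither Cdk1, with r = -0.317 (adjusted permutation p = 0.133), nor Hmmr, with r = -0.068 (adjusted p = 0.805), passed, and the choroid plexus list passed with none of the 4 division genes. The summed thalamus level was 110 ± 29.9 CPM in EE C mice and 227 ± 115 CPM in EE SUS mice, the lowest and highest group means. With the choroid plexus and thalamus lists as covariates, the EE minus SH difference was 0.26 for Mki67 (edgeR adjusted p = 0.0633) and 0.30 for Top2a (adjusted p = 0.0527), each larger than without them.

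**Figure D4:**
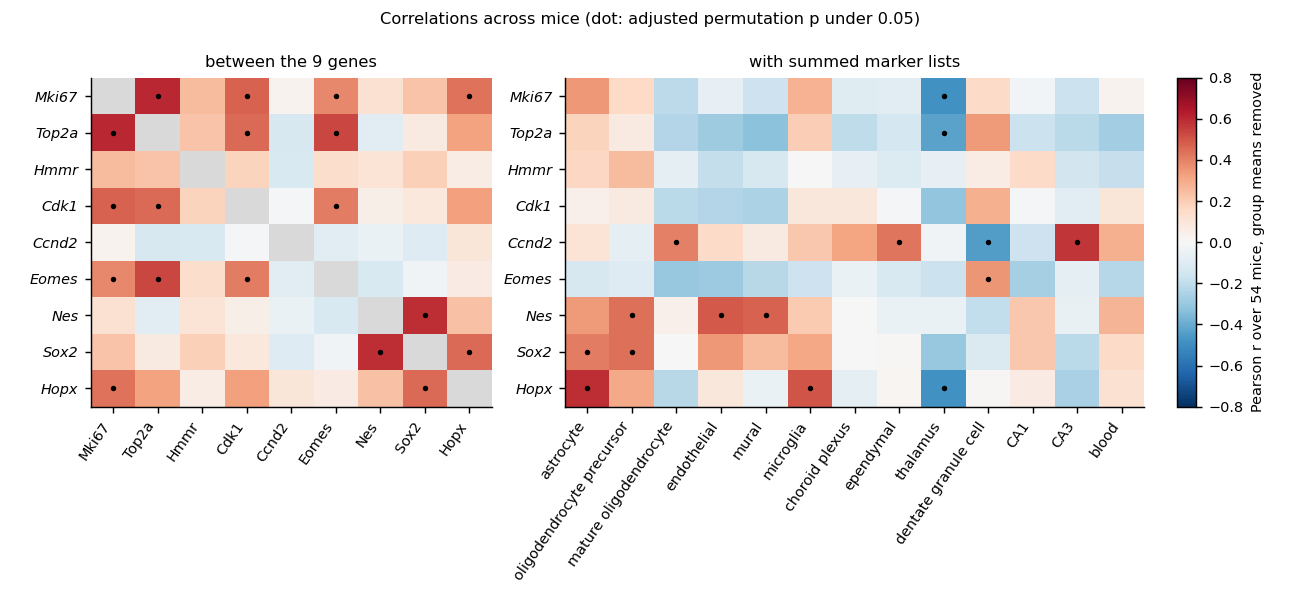
Pearson's r over 54 mice after removal of group means (color scale), between the 9 genes (left). At right, r is between each gene (rows) and the mean log2 CPM of each of 13 marker lists, titled summed in the panel. Dots mark an adjusted permutation p under 0.05 for r. All pairs among Mki67, Top2a, Cdk1 and Eomes are dotted, as are Nes with Sox2 and Sox2 with Hopx. The pair of Mki67 and Hopx is dotted too.

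Over all 18283 genes, those nearest to each member by Spearman's rho across the 54 mice, with group means removed, were named as a description. For Mki67 these were Top2a (0.615) and Rrm2 (0.577), which encodes a subunit of ribonucleotide reductase. For Top2a they were Dhx15 (0.631) and Mki67 (0.615), and for Hmmr Bmp3 (0.577) and Npy (0.521). For Eomes they were Gm2885 (0.631) and Plppr5 (0.596), and for Ccnd2 Ephx1 (0.737) and Luzp1 (0.721). For Nes they were Rhbdf2 (0.654) and Kdr (0.649), a receptor of endothelial cells. For Sox2 they were Glud1 (0.709) and Msi2 (0.699), and for Hopx Mlc1 (0.760) and Slc1a3 (0.747), both of which are expressed by astrocytes.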

How the data were processed

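Total RNA of the ventral dentate gyrus was sequenced as stranded, paired-end libraries, 55 from 54 mice. The tables the authors deposited hold unnormalized counts, per gene, in the layout of STAR gene counts, with columns for both strands together, the forward and the reverse strand. According to the methods, reads of quality under 15 were discarded and the rest aligned to GRCm38 with STAR and an Ensembl annotation, and the methods name featureCounts for counting. Reverse-strand counts were used, with rows that name no gene left out, and the 2 runs of EE C mouse 9 were summed (log2 correlation 0.999). Of 45318 identifiers, 44671 matched GENCODE M21, which gave names and coordinates. The forward strand held 3.51% to 4.13% of the stranded counts.

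Counts were normalized by TMM and filtered with filterByExpr in edgeR 4.0.16 (R 4.3.3). A quasi-likelihood model of the 6 groups was fitted with Benjamini-Hochberg adjustment over 18283 genes, and limma 3.58.1 (voom) and DESeq2 1.42.0 were run beside it. The contrasts average the groups they cover with equal weight. A gene was called at an adjusted p under 0.05. The scripts were tested on simulated counts. Correlations used log2 CPM with a prior count of 2 and permutation within groups in NumPy 2.4.6. Other computations used Python 3.11.15, pandas 2.3.3, SciPy 1.17.1 and statsmodels 0.14.6, and plots were drawn with matplotlib 3.10.9.

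A member was too low to judge if the filter dropped it or its median count was under 10. Named beside the members were the 3 most abundant tested genes of each of 5 lists, any list gene called in a main comparison, and the 2 genes nearest to each member. Aurka, Cdca8 and Ccnb2 fall outside that rule and, like the comparison SUS minus RES by housing, were picked with their values in view. The members and lists were chosen with earlier results of these data known. All 54 mice were used, since the methods state 1 to 7 replicates in a CSDS group but not which mice. The libraries of corticosterone-treated mice were not analysed here. Some marker genes that were tested are not reported here by name.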

Additional observations from a re-analysis of the deposited data

Results flagged for a closer look

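In each of the 54 sets of values formed by 9 genes in 6 groups, the highest and lowest mouse was compared with its neighbour by Dixon's criterion, which chance meets in about 1 of 20 groups, and 4 sets met it. In SH RES mice, replicate 5 was highest both for Mki67, at 3.77 CPM with the next mouse at 2.54, and for Top2a, at 5.70 CPM with the next at 3.25. It was also the mouse without which Top2a passed the adjusted threshold for EE minus SH. In EE C mice, replicate 5 had the lowest Top2a, at 2.43 CPM with the next at 3.83. In EE RES mice, replicate 4 had the highest Eomes, at 0.917 CPM with the next at 0.659.

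Of 18 tests of whether an effect differed between SH and EE, 9 genes in 2 interactions, 1 had an unadjusted p under 0.05. The share of all genes at that threshold was 6.47% for housing by defeat and 4.84% for SUS minus RES by housing. The second interaction was added after the Eomes values had been seen. For Eomes the SUS minus RES difference was 1.21 higher in EE than in SH on the log2 scale (edgeR p = 0.000488, adjusted p over all genes = 0.977), so it was not called.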

How the results depend on the processing

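No member was called in the 5 main comparisons or the F test under any alternative other than leaving out 1 mouse, where the count for EE minus SH ran from 0 to 1. For EE minus SH and the F test, DESeq2 gave no adjusted p for Hmmr, Cdk1 and Eomes. Of 485 fold changes recomputed under 11 alternatives, 460 kept their direction and side of the threshold, and 25 changed sign while not called. With unstranded counts, Mki67 was at -0.070 for EE minus SH (edgeR p = 0.219, adjusted p = 0.573). For housing by defeat it was at -0.26 (p = 0.0321, adjusted p = 0.733). The pairs on the opposite strand are included there by construction. For the rest the cause was not tested. With choroid plexus and thalamus covariates, Cdk1 was at 0.045 for SUS minus RES, 0.072 for housing by defeat and 0.036 for SUS minus RES by housing, Sox2 at 0.0295 for the last, and Hopx at 0.0099 for EE minus SH, 0.0071 for defeat and 0.0022 for SUS minus RES. With oligodendrocyte covariates, Cdk1 was at 0.030, 0.060 and 0.067 for the same 3 comparisons, Ccnd2 at -0.014 and Sox2 at 0.10 for SUS minus RES by housing, Nes at 0.0094 for defeat and -0.020 for housing by defeat, and Sox2 at -0.043 for EE minus SH. With the astrocyte covariate, Nes was at 0.0042 for EE minus SH, 0.018 for defeat and -0.025 for SUS minus RES by housing, Sox2 at 0.0083 for defeat, and Hopx at 0.0018 for EE minus SH and 0.019 for defeat. Without the low-count filter, Sox2 was at 0.0008 for SUS minus RES by housing.

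With each mouse left out in turn, these estimates, none of them called, crossed 0. For housing by defeat they ran from -0.0093 to 0.14 for Mki67, -0.044 to 0.12 for Top2a, -0.16 to 0.032 for Cdk1, -0.035 to 0.0051 for Ccnd2 and -0.033 to 0.070 for Nes. For SUS minus RES by housing they ran from -0.044 to 0.16 for Mki67, -0.21 to 0.058 for Cdk1, -0.010 to 0.054 for Ccnd2, -0.015 to 0.089 for Nes and -0.059 to 0.031 for Sox2. For SUS minus RES they ran from -0.11 to 0.017 for Cdk1, -0.024 to 0.010 for Ccnd2 and -0.19 to 0.0088 for Eomes. For EE minus SH they ran from -0.026 to 0.011 for Nes, -0.0025 to 0.031 for Sox2 and -0.029 to 1.9e-05 for Hopx. For defeat they ran from -0.043 to 0.0080 for Nes.

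Groups share replicate numbers, but the sample names do not say whether the numbers pair mice, and this was not tested. Over 126 same-numbered pairs, deviations from the group means correlated at -0.26 to 0.44 (median 0.026), with 32 pairs over 0.1, and 9 of 54 mice were closest to their own number. With the replicate number as a block, 0 members were called, Top2a was at 0.27 and Mki67 at 0.22 for EE minus SH, and Nes changed sign, to 0.011. The stricter filter of 1 CPM in 7 mice dropped Hmmr and Cdk1 and gave no value for them. Depth limits Hmmr, Cdk1 and Eomes, with medians of 10, 9 and 13.5 read pairs.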
